A study of Homo sapiens with 24 samples.

Results

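RNA abundance on the second day of a K562 time course was compared with that on the first day at the same hour. The members are 16 of the 24 libraries of the series, joined as 8 pairs of libraries 24 h apart: 24 with 0 h, 26 with 2 h, 28 with 4 h, 34 with 10 h, 36 with 12 h, 38 with 14 h, 44 with 20 h and 46 with 22 h. Pairs that hold 6, 16, 18 or 32 h were left out by the rule that defines the comparison. K562 is an established human leukaemia cell line that grows in suspension and carries the BCR-ABL1 fusion. All cells were of this line, untreated, and kept in RPMI medium with 10% bovine calf serum (BCS) and P/S. A synchronous population was obtained by centrifugal elutriation, which separates cells by size, and cells were removed every 2 h and frozen. Total RNA was extracted with acid phenol and chloroform and sequenced. The first-day group (0, 2, 4, 10, 12, 14, 20 and 22 h) and the second-day group (24, 26, 28, 34, 36, 38, 44 and 46 h) differ, by their labels, only in the time since elutriation. There was 1 library per time point and no replicate culture is labelled.

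K562 cells make fetal and embryonic globins and heme and are often used as a model of early red cell and megakaryocyte precursors. Populations synchronised by elutriation are known to lose synchrony as the cells divide. Genes of lipid synthesis, protein synthesis and lysosomes are known to respond to growth conditions in many cell types. Taking each difference between libraries 24 h apart holds the hour constant. It does not separate time in culture from anything else that changed between the first and the second day, and these cannot be told apart here.

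The defining erythroid genes were abundant in every library of both days. HBG1, a fetal globin, lay between 674 and 1209 FPKM (sequenced fragments scaled by transcript length and by the size of the library) and the erythroid factor GATA1 between 104 and 146 FPKM. Of the markers of other cell types, CD3E, CD14 and COL1A1 were not in the table. The sequencing depth is unknown. Libraries at 22 h and 28 h stood apart: the 100 most abundant genes took 21.9% and 21.2% of the summed FPKM there, against 18.2% to 20.9% in the other 14. Of 104 called genes that the rule for named genes picks, 80 were also called without the pairs 28-4 h and 46-22 h and 24 were not. A gene whose call was lost in this way is marked as such where it is described. That setting also holds fewer pairs, and whether these libraries or the number of pairs had a part in the lost calls was not tested. The median of log2(FPKM + 1) over genes was slightly higher on the second day, by 0.03 (SD of pairs 0.02, 8 pairs, higher in 7, two-sided exact sign-flip permutation p = 0.0156, 0.0430 after Benjamini-Hochberg adjustment over 11 library measures), which did not pass without the pairs holding 22 h or 28 h. The share taken by the 100 most abundant genes fell by 1.62 percentage points (SD 1.18, lower in 7 of 8 pairs, exact permutation p = 0.0156, adjusted 0.0430).

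On the second day 1089 of 12237 genes were higher (8.90%) and 676 were lower (5.52%) than at the matched hour of the first. The test was limma on the 8 paired differences of log2(FPKM + 1), with a Benjamini-Hochberg adjusted p of 0.05 or below, over genes that averaged at least 1 FPKM. Most differences were small. The median size among called genes was 0.31 on the log2 scale, 140 called genes were at least 1.5-fold higher and 22 at least 1.5-fold lower, and 997 of the 1765 had the same sign in all 8 pairs. For 115 genes (0.940%) every second-day value lay above every first-day value, and for 34 genes (0.278%) every one lay below. The p-values measure how steady a difference was over the hours of 1 culture, in which neighbouring hours are not independent. When the pairs were averaged into 3 runs of hours (0 to 4 h, 10 to 14 h, 20 to 22 h), limma called 0 genes higher and 1 lower, which was the metallothionein MT2A, while 1277 and 702 had an unadjusted p below 0.05. The split between directions depended on the scaling. As deposited 61.7% of calls were higher, but with each library centred on its median 917 genes were higher and 1024 lower (47.2% higher). Without the pairs that hold 22 h or 28 h 666 genes were higher and 477 lower. Leaving out any 1 of the pairs at 10, 12 and 14 h gave 553 to 624 higher and 230 to 270 lower, and leaving out the pair at 20 h gave 710 and 346.

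**Figure D1:**
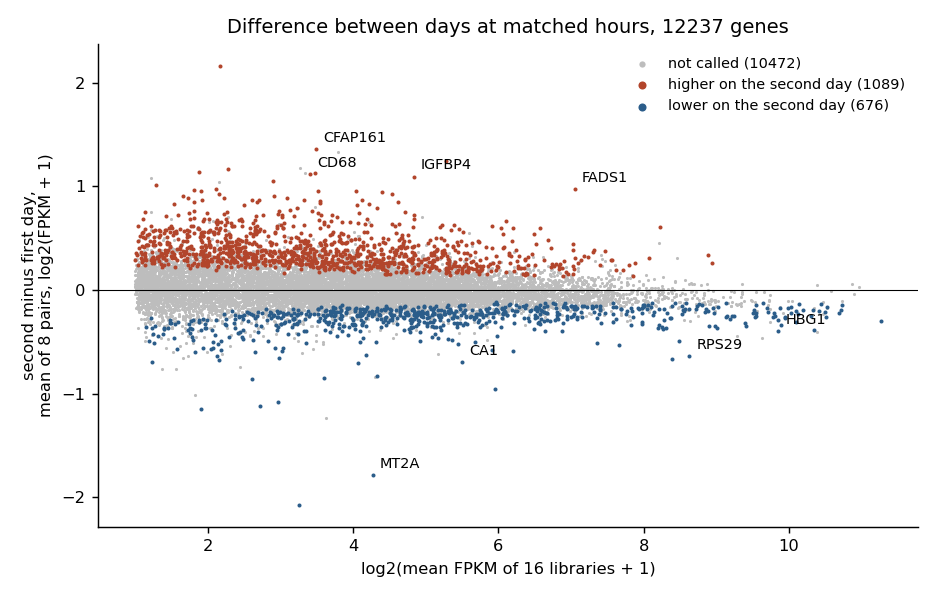
Mean difference between the days over 8 pairs, in log2(FPKM + 1), against the mean level of each gene over the 16 libraries, for 12237 genes. Red points are the 1089 genes called higher on the second day, blue points the 676 called lower, and most called differences are below 1 in size.

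Metallothioneins showed the largest decrease. MT2A (ENSG00000125148), a small cysteine-rich protein that binds zinc and copper, had 13.7 to 36.1 FPKM on the first day with a median of 32.2, and 3.74 to 14.1 FPKM on the second with a median of 6.79. The groups touched only at their edges, where the lowest first-day value was that at 22 h and the highest second-day value that at 24 h. MT2A fell by 1.79 on the log2 scale (SE 0.13, adjusted p = 0.000261, lower in 8 of 8 pairs), the largest fall among the genes named. Its level was 34.3 to 34.6 FPKM at 0, 2 and 4 h, 20.1 FPKM at 20 h and 3.74 FPKM at 44 h. Another metallothionein, MT1X, went from a median of 10.2 FPKM (4.08 to 14.5) to 3.82 FPKM (2.56 to 6.40) and fell by 1.08 (SE 0.16, adjusted p = 0.00262, lower in 7 pairs). Metallothionein genes have near-identical sequences, so reads of one may have been counted for another.

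MT2A and MT1X also belong to the NRF2 and antioxidant list, whose genes respond to oxidative stress. Of its 24 other genes 5 fell and 1 rose, and their median difference was -0.05. Of all genes tested 5.52% fell and 8.90% rose. GCLM, a subunit of the enzyme that limits glutathione synthesis, fell by 0.41 (SE 0.06, adjusted p = 0.00337), from a median of 34.1 FPKM (29.3 to 37.2) to 24.6 FPKM (22.4 to 29.9). Its partner GCLC fell by 0.32 and SRXN1, which repairs oxidised peroxiredoxins, by 0.31.

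Globin genes were lower on the second day. Of 10 globins and globin partners measured, 6 fell (60.0%, against 5.52% of all genes tested) and none rose. Their median was -0.31 against 0.01 over all genes tested. HBG1 had 791 to 1209 FPKM on the first day (median 1086) and 674 to 934 FPKM on the second (median 819), with overlap between the groups, and fell by 0.40 (SE 0.07, adjusted p = 0.00691, 8 of 8 pairs). Embryonic HBZ went from a median of 411 FPKM (305 to 557) to 299.8 FPKM (208 to 381) and fell by 0.49 (SE 0.11, adjusted p = 0.0163, 7 pairs), a call that was lost without the pairs holding 22 h or 28 h. AHSP, which stabilises free alpha globin, fell by 0.33 (SE 0.06, adjusted p = 0.00829). HBG2, HBA2 and HBQ1 fell by 0.30, 0.33 and 0.25. The embryonic HBE1 was at 1793 to 2160 FPKM and then 1685 to 2050 FPKM, with a difference of -0.04 (SE 0.05, adjusted p = 0.624). HBG1 with HBG2, and HBA1 with HBA2, are near-identical pairs between which reads may have been split. After quantile normalization 3 globins were lower. HBG1 was called in 20 of 24 alternatives. It was not called after quantile normalization, nor with the 10 pairs that leave out 16 h and 18 h. No globin was called when all 12 pairs 24 h apart were used. These add the libraries at 16 h and 18 h, which stood apart from the rest. Set against each gene's mean, the median of the globin list was -1.01 and -1.11 there, and the slope of log2(FPKM + 1) with GC content was -0.41 and -0.51 per 10 percentage points, against -0.0956 to 0.0538 in the other 22 libraries. In bulk RNA, fewer cells of a type and less RNA per cell cannot be told apart.

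RNA of the enzyme at the first step of heme synthesis was lower. ALAS2 (ENSG00000158578), the erythroid enzyme that starts and limits heme synthesis, ranged from 55.9 to 81.4 FPKM on the first day (median 71.1) and from 38.3 to 57.3 FPKM on the second (median 47.5). It fell by 0.58 (SE 0.07, adjusted p = 0.000989, 8 of 8 pairs), and the 2 groups overlapped only through 55.9 FPKM at 22 h and 57.3 FPKM at 24 h. ALAD, the next enzyme, fell by 0.24 (SE 0.06, adjusted p = 0.0248), and ABCB10, a transporter of the inner mitochondrial membrane, fell by 0.23 (SE 0.05, adjusted p = 0.0115) with no overlap between days (53.0 to 63.5 FPKM, then 47.2 to 52.1 FPKM). The other 10 of 13 heme genes were not called, and the list's median was -0.11. Those that fell were 23.1% of the list, against 5.52% of all genes tested.

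Among 29 erythroid regulators and membrane proteins 6 fell (20.7%, against 5.52% of all genes tested) and 1 rose (3.45%, against 8.90%). The median was -0.10. CA1, the erythroid carbonic anhydrase, had 40.0 to 64.8 FPKM on the first day (median 59.2) and 28.3 to 41.2 FPKM on the second (median 33.3), and fell by 0.70 (SE 0.07, adjusted p = 0.000593, 8 of 8 pairs). The anion exchanger SLC4A1 went from a median of 8.75 to 5.12 FPKM and fell by 0.66 (SE 0.12, adjusted p = 0.00562), and its membrane partner EPB42 from 3.93 to 2.37 FPKM, falling by 0.50 (SE 0.08, adjusted p = 0.00376). RHAG, ERMAP and BLVRB also fell, by 0.19, 0.36 and 0.17, of which ERMAP was not called without the pairs holding 22 h or 28 h. The transcription factor NFE2 was the one that rose, by 0.25 (adjusted p = 0.0267, 7 pairs), and was not called without the pairs holding 22 h or 28 h. The factors GATA1, KLF1, TAL1 and LMO2 were not called. Only 1 of the 15 iron uptake and storage genes was called, as lower (6.67%, against 5.52% of all genes tested). This was NCOA4, which delivers ferritin to the lysosome and fell by 0.16 (adjusted p = 0.0365). It was called in 11 of 24 alternatives and not without the pairs holding 22 h or 28 h.

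Messages for proteins of the cytosolic ribosome were lower. Of 79 cytosolic ribosomal protein genes 48 fell (60.8%, against 5.52% of all genes tested) and none rose, with a median of -0.20. All 79 differences were below 0, and the median was below 0 in 8 of 8 pairs. RPS13 ranged from 692 to 796 FPKM on the first day (median 748) and from 522 to 710 FPKM on the second (median 601). Only the second-day value at 24 h reached into the first-day range. It fell by 0.31 (SE 0.05, adjusted p = 0.00289, 8 of 8 pairs). RPS29, a short component of the small subunit, went from a median of 483 FPKM (368 to 571) to 316 FPKM (228 to 428) and fell by 0.64 (SE 0.11, adjusted p = 0.00546), the largest fall of the list. RPL39 of the large subunit fell by 0.50 (adjusted p = 0.0277), a call that was lost without the pairs holding 22 h or 28 h. The direction of the list held under every alternative, but the count did not: 7 genes were lower after quantile normalization and 5 with all 12 pairs, against 54 without the pairs holding 22 h or 28 h. By transcript length, 21 of 25 ribosomal protein genes under 600 bases were lower (median -0.25) and 27 of 54 longer ones (median -0.18). Over all genes tested 85 of 1641 short and 587 of 10494 longer genes were lower. Ribosomal protein genes have many processed pseudogenes, to which reads may have been assigned. The aminoacyl-tRNA synthetases, which charge tRNAs for translation, had 2 of 20 lower (10.0%, against 5.52% of all genes tested) and none higher. Of their differences 10 were above 0 and 10 below.

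The promoter of RPS13 is shown as that of the called ribosomal protein gene with the smallest adjusted p. Promoters here are windows of 300 bases around the transcription start, mostly upstream of it, from RefSeq on GRCh38.p14, read 5′ to 3′ on the strand of the gene. Capitals mark letters that match, on either strand, one of 11 motifs searched in every promoter. These were the E-box CACGTG, its core ACGTG, the lysosomal element TCACGTGA that holds both, the CHR element TTTGAA of late cell cycle genes, the E2F-type motifs TTTCGCGC and TTTGGCGC along with GGCGGGAA, the amino acid response element TGATGCAA, the sterol element TCACCCCAC, the antioxidant-type element TGACTCAGC and the CCAAT box. RPS13 lies at chr11:17077618-17077917 on the minus strand and holds 1 ACGTG, which 21.4% of 35116 promoters hold and 10 of the 38 called ribosomal protein genes with a promoter in the table.
RPS13: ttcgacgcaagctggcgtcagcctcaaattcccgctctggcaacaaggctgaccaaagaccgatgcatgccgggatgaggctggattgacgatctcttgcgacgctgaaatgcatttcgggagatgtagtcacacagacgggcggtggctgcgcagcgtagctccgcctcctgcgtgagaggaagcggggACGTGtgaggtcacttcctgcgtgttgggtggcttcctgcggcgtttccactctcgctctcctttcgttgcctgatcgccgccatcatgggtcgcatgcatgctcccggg
The 38 hold CCAAT in 12 cases, against 34.6% of all promoters.

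RNA of mitochondrial components moved in the same direction with smaller sizes. Of 75 mitochondrial ribosomal protein genes 13 fell (17.3%, against 5.52% of all genes tested) and none rose (median -0.11). MRPL40 went from a median of 105 FPKM (91.5 to 114) to 83.1 FPKM (72.3 to 92.5) and fell by 0.31 (SE 0.04, adjusted p = 0.00169, 8 of 8 pairs), and MRPL54 fell by 0.42 (SE 0.07, adjusted p = 0.00532, 7 pairs). Among 77 nuclear genes of the respiratory chain 20 fell (26.0%, against 5.52% of all genes tested) and none rose (median -0.11). ATP5MC2, which encodes the ring subunit of ATP synthase, had 283 to 379 FPKM (median 352) and then 246 to 296 FPKM (median 268) and fell by 0.37 (SE 0.05, adjusted p = 0.00178, 8 of 8 pairs). NDUFS3 and NDUFC1 of complex I each fell by 0.28 (adjusted p = 0.00238 and 0.00334). TMEM126A, a complex I assembly factor, went from 42.2 to 48.3 FPKM to 27.4 to 38.5 FPKM with no overlap between days and fell by 0.48 (SE 0.06, adjusted p = 0.00175). Of 5 mitochondrially encoded genes in the table MT-ATP6 and MT-ND4 fell by 0.35 and 0.33 (adjusted p = 0.0335 and 0.0453). MT-ATP6 was called in 14 of 24 alternatives and MT-ND4 in 8, and MT-ND4 was not called without the pairs holding 22 h or 28 h. The list's median changed sign in 1 of 22 alternatives. Quantile normalization left 7 respiratory chain genes lower and 1 higher, and all 12 pairs left 5 lower.

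RNA of some glycolytic enzymes was lower. Of 23 genes 7 fell (30.4%, against 5.52% of all genes tested) and none rose, with a median of -0.09. LDHA, which makes lactate, ranged from 599.9 to 959.6 FPKM on the first day (median 749) and from 514 to 723 FPKM on the second (median 553), and fell by 0.35 (SE 0.07, adjusted p = 0.0108, 8 of 8 pairs). GPI, the second enzyme of the pathway, fell by 0.28 (SE 0.04, adjusted p = 0.00347), PGK1 by 0.35, ALDOA by 0.39, ENO1 by 0.21, TPI1 by 0.20 and GAPDH by 0.20, the last of which was not called without the pairs holding 22 h or 28 h. The glucose transporters SLC2A1 and SLC2A3 and the hexokinases HK1 and HK2 were not called. After quantile normalization 1 glycolytic gene was lower and 1 higher. Of 16 hypoxia genes 1 was called, as lower (6.25%, against 5.52% of all genes tested). This was the oxygen sensor EGLN1, which fell by 0.20 (adjusted p = 0.0441). It was called in 11 of 24 alternatives and not without the pairs holding 22 h or 28 h.

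RNA of some lipid synthesis genes was higher on the second day. Of 14 genes of fatty acid synthesis 7 rose and none fell, with a median of 0.19, above 0 in 8 of 8 pairs. FADS1 (ENSG00000149485), the delta-5 desaturase of polyunsaturated fatty acids, had 66.2 to 113 FPKM on the first day (median 82.3) and 112 to 237 FPKM on the second (median 191). The first-day maximum at 22 h and the second-day minimum at 24 h were almost equal. FADS1 rose by 0.97 (SE 0.13, adjusted p = 0.00208, 8 of 8 pairs), by 0.14 in the pair at 0 h and by 1.06 to 1.41 in the pairs from 10 h to 22 h. ELOVL6, an elongase, went from a median of 22.0 FPKM (15.7 to 30.0) to 31.1 FPKM (25.2 to 34.2) and rose by 0.47 (SE 0.09, adjusted p = 0.00865). ACSS2 and ACLY, which supply acetyl-CoA, rose by 0.43 and 0.29 (adjusted p = 0.00755 and 0.0176). The synthase FASN, the carboxylase ACACA and the desaturases SCD and FADS2 were not called. The FADS1 window, chr11:61816954-61817253 on the minus strand, is shown because this gene had the smallest adjusted p of the list. It has no match to the 11 motifs and therefore no capitals.
FADS1: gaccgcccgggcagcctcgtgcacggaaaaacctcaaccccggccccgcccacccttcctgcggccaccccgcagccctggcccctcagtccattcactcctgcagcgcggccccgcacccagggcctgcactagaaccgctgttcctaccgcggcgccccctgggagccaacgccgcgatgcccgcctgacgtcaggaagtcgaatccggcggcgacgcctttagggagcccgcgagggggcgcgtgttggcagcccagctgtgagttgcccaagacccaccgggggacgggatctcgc
All 7 called genes had a promoter in the table, and 4 of them held CCAAT.

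The 26 genes of cholesterol synthesis and uptake held 13 that rose and 1 that fell, with a median of 0.22 and a direction that held under every alternative. SREBF1, a transcription factor for sterol and fatty acid genes, ranged from 36.4 to 50.6 FPKM on the first day (median 43.5) and from 46.5 to 67.6 FPKM on the second (median 63.2), and rose by 0.47 (SE 0.09, adjusted p = 0.00727, 7 pairs). HMGCS1, an early enzyme of the pathway, went from a median of 82.5 FPKM (62.1 to 137) to 115 FPKM (104 to 141) and rose by 0.41 (SE 0.08, adjusted p = 0.0103, 7 pairs). The groups overlapped for both genes. INSIG1 and MSMO1 rose by 0.54 and 0.56 (adjusted p = 0.0244 and 0.0148), and neither was called without the pairs holding 22 h or 28 h. PMVK, phosphomevalonate kinase, was the member that fell, by 0.40 (SE 0.09, adjusted p = 0.0136, 8 of 8 pairs). Without the pairs holding 22 h or 28 h the list had 6 higher and 1 lower.

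**Figure D2:**
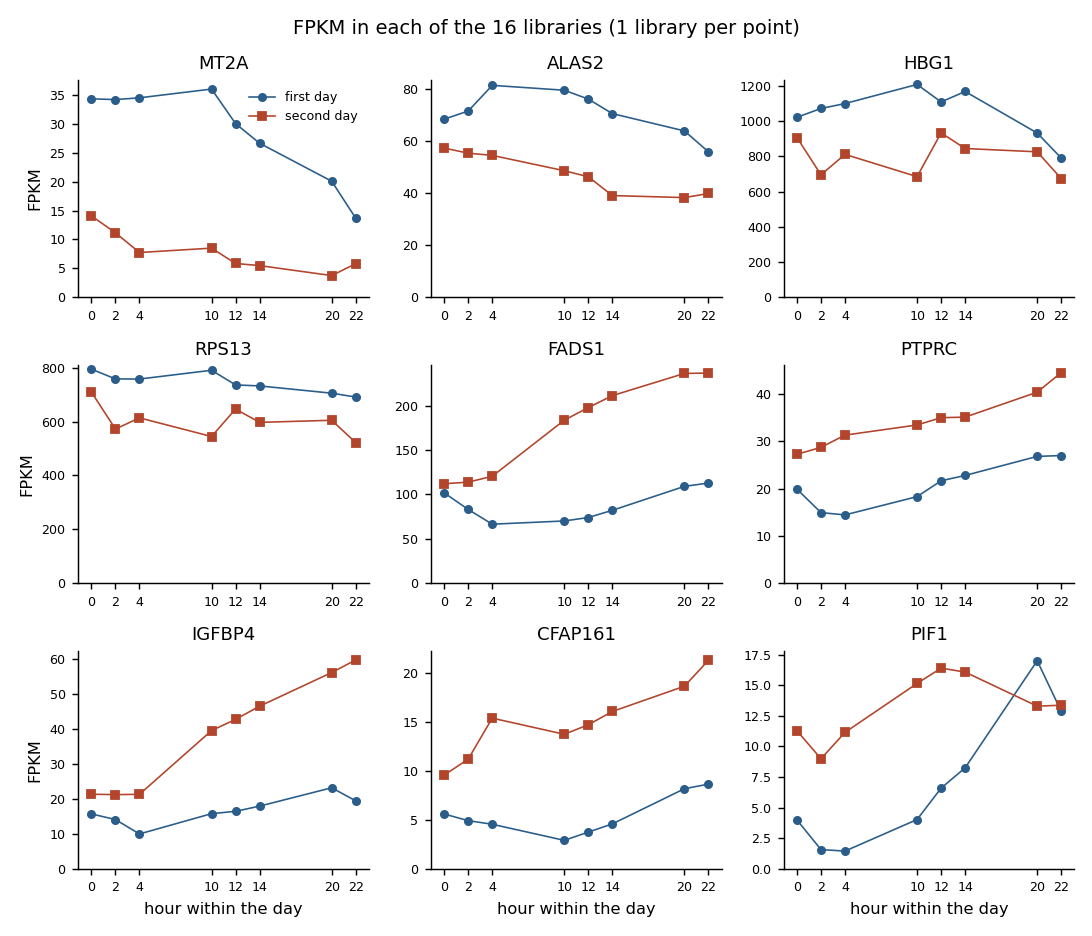
FPKM of 9 genes in each of the 16 libraries against the hour within the day, with the first day in blue circles and the second day in red squares. MT2A, ALAS2, HBG1 and RPS13 lie lower on the second day at each of the 8 hours, FADS1, PTPRC, IGFBP4 and CFAP161 lie higher at each, and PIF1 lies higher at all but 20 h.

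Lysosome and autophagy genes rose in part. Of 43 measured 9 rose (20.9%, against 8.90% of all genes tested) and none fell. The median was 0.10 and above 0 in 8 of 8 pairs, although centring each library on its median gave 7 higher and 2 lower. CTSZ, a lysosomal protease, had 48.4 to 66.1 FPKM on the first day (median 60.3) and 61.9 to 93.4 FPKM on the second (median 89.0), and rose by 0.47 (SE 0.08, adjusted p = 0.00487, 8 of 8 pairs). WIPI1, which binds the forming autophagosome, went from a median of 2.48 FPKM (1.71 to 5.79) to 4.86 FPKM (3.81 to 6.65) and rose by 0.62 (SE 0.10, adjusted p = 0.00376). CTSH, NEU1, GABARAPL1 and CD63 rose by 0.26, 0.27, 0.45 and 0.14. Without the pairs holding 22 h or 28 h 4 members were higher, and GABARAPL1 and CD63 were not called. The WIPI1 window, chr17:68457447-68457746 on the minus strand, is shown because this gene had the smallest adjusted p of the list. It holds CCAAT on each strand but neither CACGTG nor TCACGTGA, the letters of the element through which lysosomal genes are known to be controlled.
WIPI1: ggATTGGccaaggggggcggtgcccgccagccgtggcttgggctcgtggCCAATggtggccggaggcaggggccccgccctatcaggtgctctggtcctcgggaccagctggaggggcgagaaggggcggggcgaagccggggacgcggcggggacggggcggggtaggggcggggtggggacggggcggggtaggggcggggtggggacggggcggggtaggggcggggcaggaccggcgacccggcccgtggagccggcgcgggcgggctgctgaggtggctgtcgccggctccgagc
Of the 8 called lysosomal genes with a promoter in the table, 2 held CACGTG and none TCACGTGA, against 7.26% and 0.980% of all promoters.

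Interferon response genes rose by small amounts. Of 14 measured 6 rose (42.9%, against 8.90% of all genes tested) and none fell (median 0.24, above 0 in 8 of 8 pairs). STAT2, a factor of type I interferon signalling, had 19.4 to 25.1 FPKM on the first day (median 21.9) and 25.6 to 32.1 FPKM on the second (median 27.5) with no overlap, and rose by 0.34 (SE 0.05, adjusted p = 0.00190, 8 of 8 pairs). Its partner IRF9 rose by 0.28 (adjusted p = 0.0349), a call that was lost without the pairs holding 22 h or 28 h. IFITM3, a membrane protein that restricts virus entry, went from a median of 32.2 FPKM (28.0 to 36.3) to 42.2 FPKM (32.6 to 47.1) and rose by 0.36 (SE 0.07, adjusted p = 0.00709), and B2M, the light chain of class I molecules, rose by 0.33 (adjusted p = 0.0113). ISG15 and IRF1 were not called. IFI6 rose by 0.51 (adjusted p = 0.00846) at a low level, from a median of 1.18 to 2.33 FPKM.

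Several genes known from megakaryocytes, lymphocytes and monocytes rose. The leucocyte phosphatase PTPRC (CD45, ENSG00000081237) had 14.4 to 27.0 FPKM on the first day (median 20.8) and 27.3 to 44.6 FPKM on the second (median 34.2). The groups did not overlap, and the gene rose by 0.72 (SE 0.07, adjusted p = 0.000478, 8 of 8 pairs). CD52, a surface glycoprotein of lymphocytes, lay between 8.74 and 13.4 FPKM on the first day and at 11.3 to 12.4 FPKM at 24, 26 and 28 h, and then reached 19.3 FPKM at 34 h and 42.5 FPKM at 46 h. Its mean rise was 0.83 (SE 0.25, adjusted p = 0.0462, 6 pairs), which was not called without the pairs holding 22 h or 28 h. CD3D rose by 0.63 (SE 0.13, adjusted p = 0.0103), from 4.20 to 5.73 FPKM to 5.78 to 12.9 FPKM. The 4 of 15 lymphoid marker genes in the table summed to 32.5 to 43.8 FPKM on the first day and 46.5 to 98.4 FPKM on the second and were higher in 8 of 8 pairs.

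Of 12 monocyte and macrophage markers LYZ and CD68 were in the table, and both rose. LYZ, lysozyme, went from a median of 12.7 FPKM (10.7 to 22.2) to 24.1 FPKM (19.8 to 28.2) and rose by 0.79 (SE 0.08, adjusted p = 0.000513, 8 of 8 pairs), with overlap only through the 22 h library. CD68, a lysosomal protein, went from a median of 5.21 FPKM (4.14 to 7.55) to 14.5 FPKM (6.21 to 20.7) and rose by 1.12 (SE 0.21, adjusted p = 0.00821). The pair differences of CD68 were 0.11 and 0.03 at 0 and 2 h and 1.28 to 1.83 from 10 h on. Summed over both, the level was 16.6 to 27.5 FPKM on the first day and 26.0 to 48.9 FPKM on the second, higher in 8 of 8 pairs. Whether a few other cells had a part in these levels was not tested.

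Among 7 megakaryocytic genes of 20 in the list 3 rose (42.9% of the 7, against 8.90% of all genes tested) and none fell. ITGA2B, the platelet integrin CD41, went from a median of 1.81 FPKM (0.926 to 2.88) to 5.42 FPKM (2.82 to 9.71) and rose by 1.17 (SE 0.18, adjusted p = 0.00334, 8 of 8 pairs). F2RL3, a thrombin receptor, had 2.60 to 4.91 FPKM and then 5.03 to 8.21 FPKM with no overlap and rose by 0.67 (SE 0.09, adjusted p = 0.00196). TUBB1, a tubulin of platelets, rose by 0.22 (adjusted p = 0.0322), was called in 12 of 23 alternatives and was not called without the pairs holding 22 h or 28 h, after median centring or after quantile normalization. The platelet glycoprotein GP1BB and the regulators GATA2, RUNX1 and MEIS1 were not called, although all 7 mean differences were above 0. The summed level of the list, in which abundant genes weigh most, was 81.4 to 183 FPKM on the first day and 103 to 178 FPKM on the second. This sum was higher in 2 of 8 pairs, and its lowest values in the matched libraries of each day were at 22 h and 28 h. Of the fibroblast and epithelial genes COL1A2 rose by 0.33 and EPCAM fell by 0.13, and neither was called without the pairs holding 22 h or 28 h. They were called in 14 of 23 and 13 of 24 alternatives. The 7 members summed to 361 to 400 FPKM and then 356 to 385 FPKM, higher in 2 of 8 pairs.

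**Figure D3:**
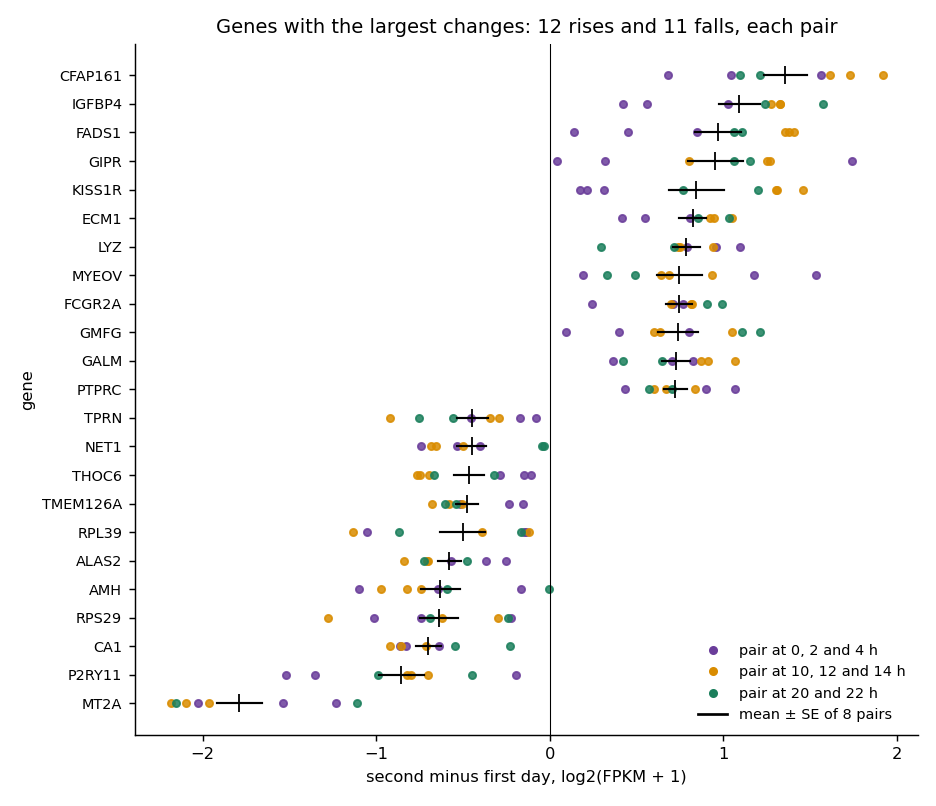
Difference between the days in each of the 8 pairs, in log2(FPKM + 1), for the 12 protein-coding genes with the largest mean rises and 11 with the largest mean falls among genes that averaged at least 10 FPKM and had 1 sign in all 8 pairs. Points are coloured by run of hours and black bars give the mean and its SE. MT2A has the largest fall, by 1.79, and CFAP161 the largest rise, 1.36.

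The genes with the largest rises, which include FADS1, LYZ and PTPRC described above, were not tested for a shared function. CFAP161 (ENSG00000156206), a cilium- and flagellum-associated protein, had 2.90 to 8.66 FPKM on the first day (median 4.76) and 9.59 to 21.4 FPKM on the second (median 15.1). Every second-day value was above every first-day value, and the gene rose by 1.36 (SE 0.12, adjusted p = 0.000443, 8 of 8 pairs), the largest rise by the rule for named genes. IGFBP4 (ENSG00000141753), a secreted protein that binds insulin-like growth factors, went from a median of 16.1 FPKM (9.94 to 23.2) to 41.1 FPKM (21.2 to 59.7) and rose by 1.09 (SE 0.12, adjusted p = 0.000829). It lay at 21.2 to 21.3 FPKM at 24, 26 and 28 h and reached 59.7 FPKM at 46 h. The receptors GIPR, for an incretin, and KISS1R, for kisspeptin, rose by 0.96 (SE 0.16, adjusted p = 0.00458) and 0.84 (SE 0.16, adjusted p = 0.00774). FCGR2A, a receptor for IgG, went from 7.69 to 15.6 FPKM to 13.2 to 32.1 FPKM and rose by 0.74 (SE 0.07, adjusted p = 0.000518). ECM1, an extracellular matrix protein, rose by 0.82, GMFG, an actin regulator of blood cells, by 0.74, GALM, which interconverts the anomers of galactose, by 0.73, and MYEOV by 0.75.

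Among genes that averaged at least 10 FPKM and had 1 sign in 8 pairs, the falls of P2RY11, AMH, THOC6, NET1 and TPRN were also among the largest, beside those of MT2A, CA1, ALAS2, TMEM126A and ribosomal proteins. P2RY11, an ATP receptor, fell by 0.85 (SE 0.13, adjusted p = 0.00297), from a median of 12.6 FPKM (8.06 to 26.5) to 7.40 FPKM (3.56 to 10.2). Its transcripts overlap those of the neighbouring PPAN, so reads of the pair may have been shared and the value is uncertain. AMH, a hormone of the TGF-beta family, fell by 0.63 (SE 0.11, adjusted p = 0.00609), with a difference of only -0.01 in 1 pair. THOC6, a subunit of the complex that prepares RNA for export, fell by 0.47, and NET1, a guanine nucleotide exchange factor, by 0.45 (adjusted p = 0.00709 and 0.00784). Of 23 genes with the largest changes 19 were called in every one of 24 alternatives other than the 3 run means and MT2A in all 24, while AMH and TPRN were not called with all 12 pairs, and RPL39 was not called in 8 alternatives, among them that without the pairs holding 22 h or 28 h.

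**Figure D4:**
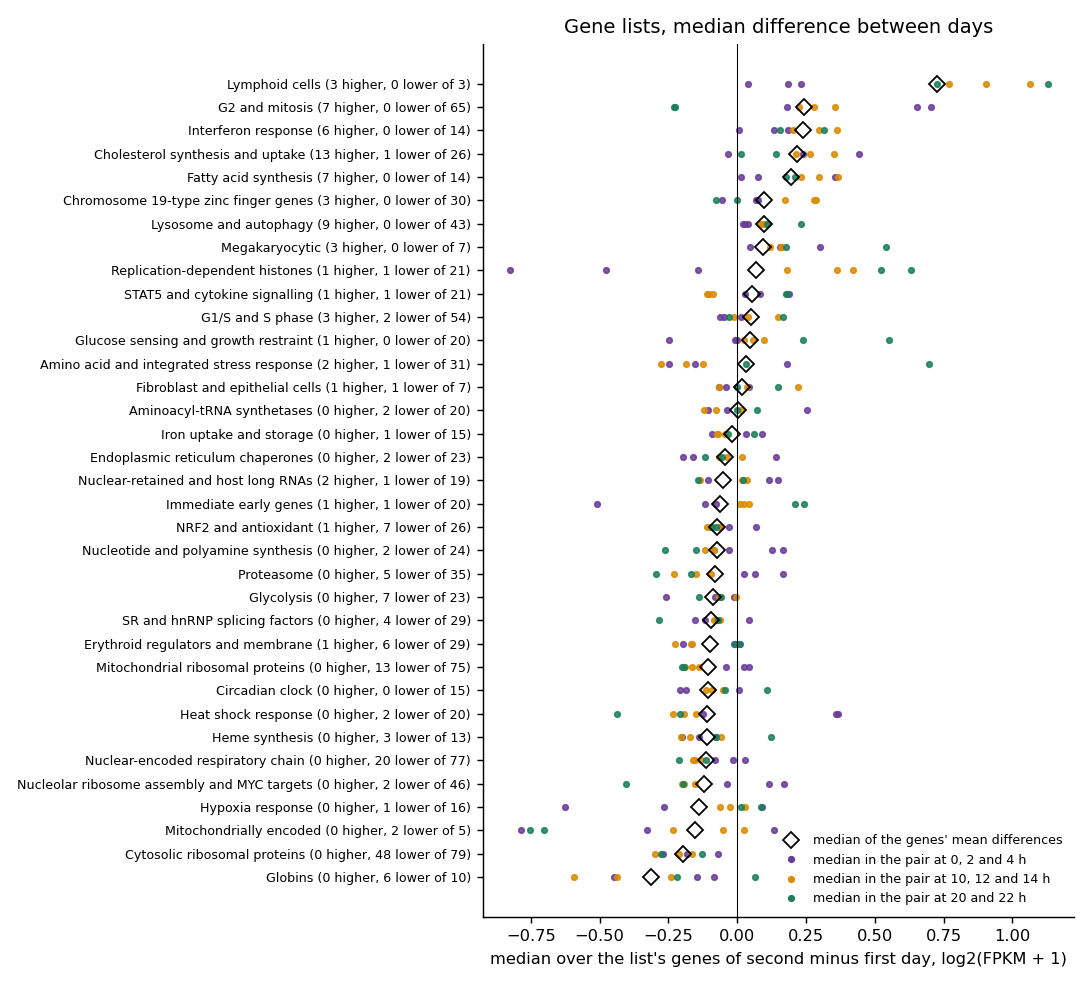
Median difference between the days of 35 gene lists with at least 3 genes measured, in log2(FPKM + 1). Diamonds give the median over the genes' mean differences, points the median in each pair coloured by run of hours, and the labels count genes called higher and lower. The cytosolic ribosomal proteins lie below 0 in all 8 pairs. The histone and G2 and mitosis lists cross 0 with the hour, as do others, among them the heat shock, nucleolar and proteasome lists.

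Cell cycle genes differed between the days in a way that depended on the hour. The 65 genes of G2 and mitosis had a median difference of 0.24, with 7 higher (10.8%, against 8.90% of all genes tested) and none lower, but the median in single pairs was 0.18, 0.65 and 0.70 at 0, 2 and 4 h, then 0.35, 0.28 and 0.22 at 10, 12 and 14 h, and -0.23 at both 20 and 22 h. Set against each gene's mean, the list lay at -0.61 at 2 h and 0.32 at 22 h on the first day, a range of 0.93 over the 8 hours, and within a range of 0.19 on the second. The second day was thus higher at hours when the first day was low and lower at hours when it was high. TOP2A, the topoisomerase that untangles replicated chromosomes, had 47.8 to 122 FPKM on the first day (median 94.6) and 95.4 to 132 FPKM on the second (median 123), and rose by 0.48 (SE 0.11, adjusted p = 0.0150, 7 pairs). FAM83D, a spindle protein, went from a median of 19.6 FPKM (9.62 to 24.4) to 29.3 FPKM (22.3 to 33.8) and rose by 0.63 (SE 0.08, adjusted p = 0.00178, 8 of 8 pairs). PIF1, a DNA helicase, rose by 1.13 (SE 0.26, adjusted p = 0.0177), with differences of 1.30 to 2.32 in the pairs at 0, 2 and 4 h and of -0.33 and 0.05 at 20 and 22 h. Cyclin B1 (CCNB1) and the kinase CDK1 had differences of 0.28 and 0.30 and were not called (adjusted p = 0.337 and 0.0512). Upper-quartile scaling raised the count to 16 higher, and without the pairs holding 22 h or 28 h 3 were higher and 1 lower.

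The TOP2A window lies at chr17:40417847-40418146 on the minus strand. It is shown as that of the called gene with the smallest adjusted p among those with a promoter in the table. It has TTTGAA once on each strand and CCAAT 4 times, read as ATTGG on the strand of the gene.
TOP2A: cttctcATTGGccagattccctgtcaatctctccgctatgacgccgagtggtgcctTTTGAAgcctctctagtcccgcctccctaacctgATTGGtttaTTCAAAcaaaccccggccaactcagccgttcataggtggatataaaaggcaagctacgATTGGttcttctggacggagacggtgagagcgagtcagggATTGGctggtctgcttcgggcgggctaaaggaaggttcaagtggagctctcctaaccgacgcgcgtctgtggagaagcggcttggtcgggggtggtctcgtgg
Of the 6 called genes of this list with a promoter in the table, TTTGAA was in 4 and CCAAT in 4, against 15.2% and 34.6% of all promoters.

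Genes of G1/S and S phase changed less. Of 54 measured 3 rose (5.56%, against 8.90% of all genes tested) and 2 fell (3.70%, against 5.52%). The list had a median difference of 0.05 and ranged over the hours by 0.39 on the first day and 0.23 on the second. It was high at 2 and 4 h and low at 12 and 14 h on both days, and low at 20 h on the first. UNG, which removes uracil from DNA, fell by 0.34 (SE 0.06, adjusted p = 0.00755) and the helicase subunit MCM7 by 0.19, while BRCA1 rose by 0.24 (SE 0.05, adjusted p = 0.0140) and RRM2 and CCNE1 by 0.29 and 0.21, of which RRM2 was not called without the pairs holding 22 h or 28 h. The 21 replication-dependent histones had a median of -0.82 at 0 h and 0.63 at 22 h. H1-2, a linker histone, had 573 FPKM at 0 h and 227 FPKM at 24 h, but 249 FPKM at 22 h and 330 FPKM at 46 h. Its mean difference was -0.67 (SE 0.18, adjusted p = 0.0312, 6 pairs), which was not called in 9 of 24 alternatives.

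**Figure D5:**
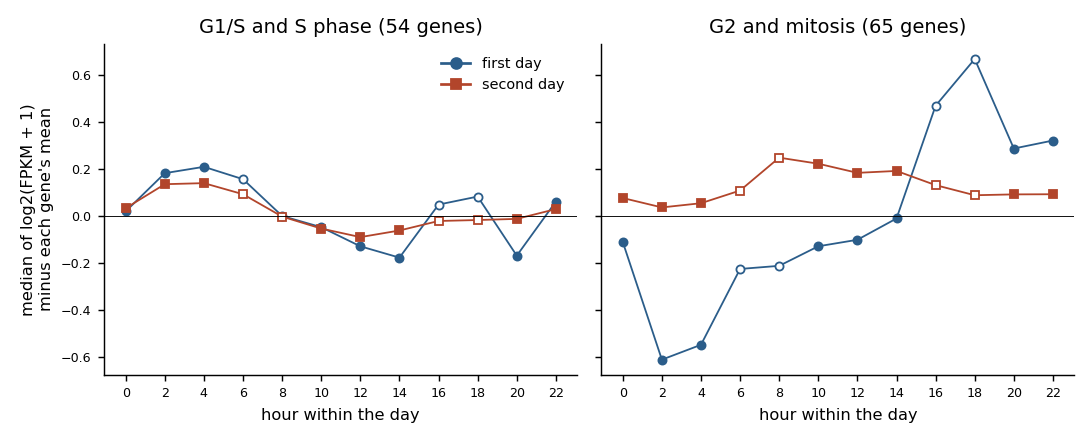
Median level of the G1/S and S phase genes (54) and the G2 and mitosis genes (65), as log2(FPKM + 1) minus each gene's mean, against the hour within the day, for the first day (blue circles) and the second (red squares). Filled symbols are the 16 matched libraries and open symbols the 8 others. The G2 and mitosis genes span 0.93 over the matched hours of the first day and 0.19 over those of the second.

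A limma F test for a dependence of the day difference on the run of hours (0 to 4 h, 10 to 14 h and 20 to 22 h) called 474 genes (3.87%). This count rested on single pairs. It was 0 without the pair at 2 h, at 12 h or at 22 h, 7 without that at 14 h, 30 without that at 10 h, 106 without both pairs holding 22 h or 28 h and at most 669 without any other pair. In the settings with 0 calls 2055 to 2607 genes had an unadjusted p below 0.05, against 3196 with all 8 pairs. Among the genes with the smallest p were CDCA2, a chromatin phosphatase subunit of mitosis, whose mean differences were 0.66, 0.43 and -0.54 in the 3 runs, H2BC4, a histone, with -1.12, 0.18 and 0.87, and SPC25 of the kinetochore with 0.63, -0.16 and -0.16 (adjusted p = 0.0122 each). CD52 had -0.06, 0.94 and 1.99. The mitotic kinase AURKA had 0.85, 0.65 and -0.55 (adjusted p = 0.0261), and the adhesion protein LRFN4 had 0.35, -0.45 and -0.59 (adjusted p = 0.0122).

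Other lists had few called genes. None of 15 circadian clock genes was called, with a median of -0.11; CSNK1D, the most abundant, had a difference of -0.11 (SE 0.04, adjusted p = 0.117). Of 46 nucleolar and MYC target genes 2 fell (4.35%, against 5.52% of all genes tested), NOP2 by 0.23 and EBNA1BP2 by 0.19, while 42 of the 46 differences were below 0 and the median was -0.12. Of 35 proteasome genes 5 fell (14.3%) and 30 differences were below 0 (median -0.08), with PSMA7 falling by 0.17 as the one with the smallest adjusted p (0.0220). NOP2, EBNA1BP2 and PSMA7 were called in 10, 9 and 13 of 24 alternatives and not without the pairs holding 22 h or 28 h. SR and hnRNP splicing factors had 4 of 29 lower (13.8%) and 25 differences below 0 (median -0.10), with TRA2B falling by 0.24 (adjusted p = 0.00930). Of 20 heat shock genes 2 fell (10.0%), HSP90AA1 by 0.23 (adjusted p = 0.00774) and HSF1 by 0.18. The nucleotide and polyamine synthesis list had 2 of 24 genes lower (8.33%, against 5.52% of all genes tested), IMPDH2 by 0.22 and OAZ1 by 0.25. Amino acid and integrated stress response genes had 2 higher (6.45%) and 1 lower (3.23%) of 31, against 8.90% and 5.52% of all genes tested. Their median was between -0.28 and 0.18 in 7 pairs and 0.70 in the pair at 22 h. Chromosome 19-type zinc finger genes had 3 of 30 higher (10.0%, against 8.90% of all genes tested), among them ZNF83 with a rise of 0.27 (adjusted p = 0.00570). Of the fusion partners and their signalling genes BCR rose by 0.20 (adjusted p = 0.0151) and the adaptor CRKL fell by 0.23, which was not called without the pairs holding 22 h or 28 h.

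The pairs left out by the rule were used as libraries that took no part in the calls. In the pairs 30-6 h and 32-8 h the mean difference had the called direction for 97.7% of the 1089 genes called higher, with a median of 0.40, and for 95.6% of the 676 called lower, with a median of -0.23. Over all genes tested 55.5% were higher and 44.5% lower in these pairs. With the pairs 40-16 h and 42-18 h included the shares were 81.5% and 70.3%, against 45.9% and 54.1% of all genes. These libraries come from the same culture and lie next to those of the 8 pairs in time.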

How the data were processed

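RNA of 24 K562 libraries, 1 for each time point, had been sequenced. The authors aligned reads with STAR and quantified and normalized them with Cufflinks and Cuffnorm on GRCh37, per the processing notes of the submitters. The deposited values are FPKM for 12285 genes and were used as deposited. Tool versions and the annotation are not given in the sources used here. A cleaned table, of scores the authors derived from the FPKM and deposited, was not used. All per-sample columns had a sample. The depth per library is unknown, so precision from counting reads cannot be given, and single values have no replicate.

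Each of 8 pairs of libraries 24 h apart gave a difference of log2(FPKM + 1), second minus first day, which understates changes of low genes. Genes that averaged at least 1 FPKM in the 16 libraries were tested (12237) with limma 3.58.1 in R 4.3.3, with an intensity trend in the prior variance and Benjamini-Hochberg adjustment over all genes tested. A limma F test with 3 runs of hours asked whether differences depended on the hour. Library measures were compared with two-sided exact sign-flip permutation tests over the 8 pairs. The pairs come from the time labels. As a check, deviations of paired libraries from their group means correlated at -0.05 to 0.25, and only the pair at 10 h matched its own hour best. The scripts were tested on simulated data.

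Identifiers were matched to GENCODE 29, for the type, length and GC content of genes (12180 of 12285), and to a table of gene names (12123, of which 11434 gave a symbol). Promoters and their motif matches come from RefSeq on GRCh38.p14 and no coordinates of other genes are given.

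The pairs, the gene lists and the tests were chosen with earlier results of these data known. Genes are named by a rule: the 12 largest rises and the 12 largest falls among called protein-coding genes that averaged at least 10 FPKM, with 1 sign in 8 pairs, up to 3 called members of each of 36 lists, or the most abundant member where none was called, and the genes with the smallest p in the F test. Some genes that the rule names are not reported here, so that 11 of the 12 falls are given. Further members of lists are named to describe the lists, and were chosen after their values were seen. Alternatives were a pseudocount of 0.1, other filters, 3 other scalings, removal of a GC trend, unpaired groups, other sets of pairs and lags, the means of 3 runs, a linear trend, a prior variance without a trend and leaving out each pair.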

Additional observations from a re-analysis of the deposited data

Results flagged for a closer look

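Values were marked where 1 of 8 lay far from the other 7 by Dixon's test. Of 81 groups of 8 checked 12 were marked, and chance marks about 1 in 20. Of the library measures, the 28 h library had a summed FPKM of 500802 among second-day libraries and 21.2% of it in the 100 most abundant genes. At 22 h the slope with GC content was -0.0956 log2 units per 10 percentage points, and at 0 h the slope with log2 transcript length was -0.0178. The megakaryocytic list summed to 81.4 FPKM at 22 h and 103 FPKM at 28 h, both lower than in the other libraries of their day. The 46 h library had the lowest median correlation with the other 15 libraries (0.977).

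Of the differences between days, FCGR2A rose by only 0.24 in the pair at 0 h. In the pair at 22 h the list medians stood apart for heme synthesis (0.12), for the amino acid and integrated stress response (0.70) and for lysosome and autophagy (0.23). In the pair at 4 h that of the NRF2 and antioxidant list was 0.0698.

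The difference between days depended on the run of hours, by the limma F test, for 17 of the genes named. Several of these were named because they had the smallest p in this same test. The 17 are therefore no share to set against the 3.87% called among all genes tested. The adjusted p was 0.0122 for H1-2, CD52, LRFN4, CDCA2, H2BC4 and SPC25, 0.0168 for KISS1R, 0.0174 for CCNF, 0.0248 for CDCA8, 0.0261 for AURKA, 0.0273 for ITGA2B, 0.0284 for CD68, 0.0313 for PIF1, 0.0357 for FADS1, 0.0376 for CD3D, 0.0455 for NET1 and 0.0481 for THOC6. KISS1R, ITGA2B, CD68, CD3D and FADS1 had smaller differences at 0 to 4 h than later, and CCNF, CDCA8, AURKA, PIF1 and CDCA2 were higher on the second day at 0 to 4 h and not at 20 to 22 h. The test lost all its calls without the pair at 2 h, 12 h or 22 h.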

How the results depend on the processing

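The numbers of genes higher and lower (1089 and 676) were within 1.5 times under 0.1 as pseudocount, no filter, upper-quartile and quantile scaling, removal of the GC trend, all 12 pairs, a lag of 22 h and a prior without a trend. Similar numbers did not always mean the same genes. With 0.1 as pseudocount 1073 of the 1089 and 670 of the 676 were called again. The same counts were 796 and 515 after quantile normalization, 763 and 349 with all 12 pairs, and 854 and 407 at a lag of 22 h. With no replicate block, that is without the pairing, they were 1077 and 625. They were 546 and 543 for genes that averaged 10 FPKM or more, 917 and 1024 after median centring, 666 and 477 without the pairs holding 22 h or 28 h, 1780 and 1048 at a lag of 26 h, 0 and 1 with 3 run means, 2403 and 1643 with a linear trend, and 140 and 22 with at least 1.5-fold as well. Leaving out 1 pair gave 553 to 1494 and 230 to 963. The F test over runs of hours gave 106 without the pairs holding 22 h or 28 h, 0 with 10 pairs (1847 at an unadjusted p below 0.05) and 0 to 669 when 1 pair was left out. The cause of these changes was not tested. The signs of 26 of 36 list medians held in all 22 alternatives.

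Summed FPKM differed by -18125 between days (exact p = 0.0625) and passed at -20782 without the pairs holding 22 h or 28 h and at -29404 with all 12 pairs, and its range on leaving out 1 pair was -24552 to -13976. The median of log2(FPKM + 1) lost its call at 0.0257 without the pairs holding 22 h or 28 h and at 0.0108 with all 12 pairs. The slope with length passed at 0.00513 without the pairs holding 22 h or 28 h, and lay between 0.00276 and 0.00571 when 1 pair was left out. Over the same omissions genes at 0 differed by -3.57 to -0.571, the megakaryocytic sum by -17.6 to 4.17 FPKM and the fibroblast and epithelial sum by -7.03 to -1.7 FPKM. Depth is unknown, which limits single values of low genes.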

Other observations

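Genes outside the rule were chosen here after their values were seen. MIR223HG, the host transcript of the myeloid miR-223, had 38.0 FPKM on average and rose by 1.25 on the log2 scale (SE 0.13, limma adjusted p = 0.000543, 8 of 8 pairs), from a median of 23.4 to 44.9 FPKM. Other genes at lower levels rose in all 8 pairs. ESRRB, an orphan nuclear receptor, rose by 1.05 (adjusted p = 0.000351), from a median of 3.60 to 8.93 FPKM. SH2D1B, an adaptor of natural killer cells, rose by 1.14 (adjusted p = 0.00285), from 1.08 to 3.77 FPKM. PRF1, the perforin of cytotoxic cells, rose by 1.01, from 0.495 to 2.36 FPKM. Its first-day median lay below the 1 FPKM that a gene had to average to be tested. It passed this filter largely through its second-day values, so its p is not given.

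Of 407 lincRNA genes 58 were higher (14.3%) and 6 lower (1.47%), with a median difference of 0.08. Of 444 antisense genes 45 were higher (10.1%) and 13 lower (2.93%). Among 10380 protein-coding genes 907 were higher (8.74%) and 632 lower (6.09%), with a median of 0.00105. Non-coding genes are less abundant, and the share of higher calls was 50.1% when only genes that averaged 10 FPKM or more were tested.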
